A study of Mus musculus with 12 samples.

Results

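The genes of the NF-κB subunits and of the inhibitors that hold NF-κB in check were examined in auditory cortex from acute brain slices, by bulk sequencing of poly-A RNA. The 10 genes were chosen by name, and all were found, each as 1 row among the 20989 gene loci of every library. They comprise 5 subunits (Nfkb1, Nfkb2, Rel, Rela and Relb) and 5 genes grouped as inhibitors (Nfkbia, Nfkbib, Nfkbie, Nfkbiz and Tnfaip3). Of the latter, Nfkbiz encodes a nuclear protein that also helps to switch on genes, as described below. The slices, 350 µm thick, came from 6 C57bl6/J mice at 4 weeks of age, and each slice was divided at the midline. The control group consists of the 6 hemispheres kept for 1 h in aCSF, the artificial cerebrospinal fluid. The cocktail group consists of the 6 matching hemispheres, kept for 1 h in aCSF with 50 µM bicuculline (a blocker of GABA-A receptors), 50 µM carbamoylcholine, 100 µM each of dopamine, serotonin and norepinephrine, and 40 µM ascorbic acid. By the study's methods, both hemispheres then rested for 1 h more in plain aCSF before the cortex was dissected, a step that the labels do not mention, so the RNA may have been taken 1 h after the drugs were withdrawn. Both hemispheres of a mouse had been cut, kept 15 min in choline-based buffer and rested 45 min in aCSF beforehand, and the drugs were never given singly, so the comparison is between handled tissue with and without the whole mixture.

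NF-κB proteins are dimeric transcription factors of the Rel family. In resting cells they are held in the cytoplasm by IκB proteins, and signals from cytokine or Toll-like receptors activate the IKK kinases, which mark the IκB proteins for destruction and free the dimers to enter the nucleus. Several inhibitor genes are themselves turned on by NF-κB, which gives the pathway its negative feedback, and in the brain the pathway is best known from microglia and endothelial cells, with a role in neurons as well.

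Expression was measured as FPKM, the number of sequenced fragments on a gene scaled to transcript length and to the fragments on protein coding genes of the library, so levels of different genes can be compared. The reads recovered from the intervals around the FPKM values came to between 10601067 and 19768881 per control library and between 13544297 and 17643462 per cocktail library. Control mouse 1 was the deepest library and had the lowest summed FPKM (290155, against 306085 to 321723 in the other 5 control libraries), so results are also given without this mouse. Markers of excitatory neurons, inhibitory neurons, astrocytes, oligodendrocytes, endothelial cells and microglia were all present, as cortex should have, and no marker of these cells was called different between the groups by limma (described below). The 9 microglia markers summed to between 109 and 123 FPKM in control libraries and between 109 and 133 FPKM in cocktail libraries, and that of 5 markers of lymphocytes and neutrophils was at most 0.133. Because whole tissue was sequenced, fewer cells of a type and less RNA per cell cannot be told apart.

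RefSeq promoter windows of GRCm38.p6, from 250 bases before to 50 after a gene's start, were given for 7 of the 10 genes, and 5 of these 7 hold the κB consensus, the binding motif of NF-κB, on either strand (overlapping matches counted as 1). Among all 27025 genes with a window, 9.55% hold it. The stretches below show a match in capitals, written along the strand of the gene, for the 5 genes that hold one and for Bcl3, a further nuclear IκB protein described later. Nfkb2 has several start sites and further matches, of which 1 is shown.
Rel, chr11:23771042-23771071, minus strand: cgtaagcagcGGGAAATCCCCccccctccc
Nfkb2, chr19:46304688-46304717, plus strand: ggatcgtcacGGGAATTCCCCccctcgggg
Nfkbia, chr12:55492657-55492686, minus strand: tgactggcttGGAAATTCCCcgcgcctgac
Nfkbie, chr17:45555584-45555613, plus strand: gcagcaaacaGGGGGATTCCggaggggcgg
Tnfaip3, chr10:19015516-19015545, minus strand: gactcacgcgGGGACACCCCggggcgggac
Tnfaip3, chr10:19015403-19015432, minus strand: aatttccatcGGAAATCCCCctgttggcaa
Bcl3, chr7:19822734-19822763, minus strand: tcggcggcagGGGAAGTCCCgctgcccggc

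The match in Rel starts 92 bases before the gene's start and that in Nfkbia 29 bases before it. The windows of Rela and Nfkbib hold no match. The AP-1 motif TGANTCA was found in windows of 3 of the 7 genes (Nfkb2, Nfkbie and Tnfaip3) against 8.97% of all genes, and the cAMP response element TGACGTCA in none of the 7 against 2.03% of all genes. A match is a run of letters and not a measured binding site.

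In control slices the inhibitor Nfkbia was the most abundant of the 10 transcripts and Rel the least. Nfkbia, which encodes IκBα and lies on chromosome 12 of mm10 from 55489409 to 55492647, had 29.8 ± 4.96 FPKM (SD, n = 6). Rela, which encodes the main transactivating subunit (chromosome 19, 5637490 to 5648130), followed with 16.5 ± 1.36 FPKM, and Nfkbib, which encodes IκBβ (chromosome 7, 28758251 to 28766524), with 11.5 ± 0.669 FPKM. The order of these 3 genes was the same in all 6 control and all 6 cocktail libraries, with no overlap of their ranges. Next came Nfkbiz at 8.38 ± 1.97, Tnfaip3 at 6.04 ± 1.42, Nfkb1 at 5.75 ± 0.542 and Relb at 5.27 ± 0.697 FPKM. Tnfaip3 was above Nfkb1 in 3 of 6 control libraries and Nfkb1 above Relb in 4 of 6, so these neighbours could not be ordered beyond their spread. The lowest levels were those of Nfkb2 at 4.06 ± 0.264, Nfkbie at 3.31 ± 0.543 and Rel at 2.25 ± 0.402 FPKM. The spread between mice was widest for Nfkbiz and Tnfaip3, with a coefficient of variation of 23.5% in control slices for both, and narrowest for Nfkbib (5.84%).

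To ask which of these genes changed with the cocktail, log2(FPKM + 1) values were compared within mice by limma, a linear model fitted here to the 12032 loci whose mean FPKM reached 1, with the mouse as a block and Benjamini-Hochberg adjustment at 0.05. All 10 genes passed this filter. The added 1 draws the log2 fold changes of genes with low FPKM towards 0, so they understate such changes beside those of abundant genes. Of the 10, 2 were called higher in the cocktail (Rel and Nfkbiz), 0 lower, and 8 were not called, where 1.50% of all loci were called, 1.22% higher and 0.274% lower. The median log2 fold change of the 10 genes was 0.042, and that of all loci was 0.0076. An unadjusted p under 0.05 was seen in 5 of the 10 genes and in 968 of all loci. In 3 of the 10 genes all 6 mice moved the same way, against 6.30% of all loci.

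**Figure D1:**
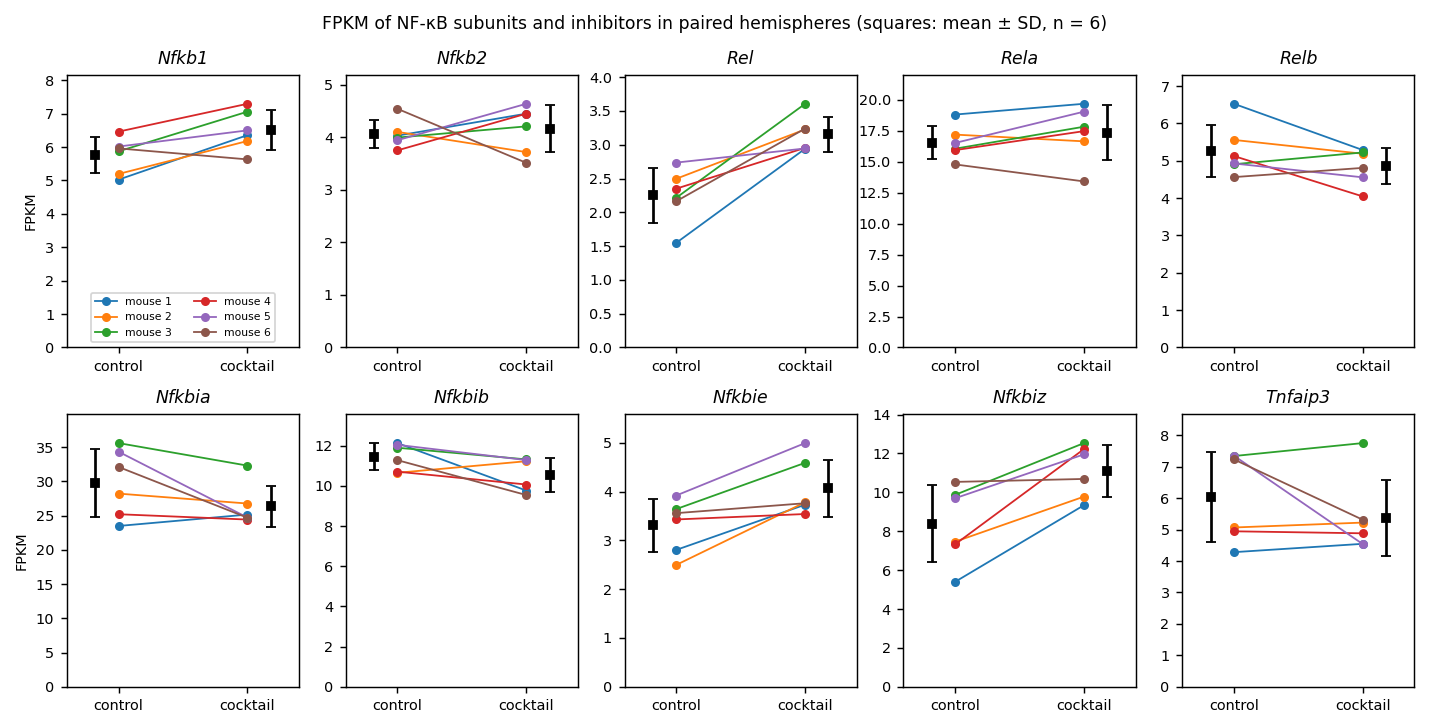
FPKM of each of the 10 genes (vertical axes, from 0) in the control and cocktail hemispheres, with a line for each mouse and squares for the mean ± SD of 6 libraries. All 6 lines rise for Rel, Nfkbie and Nfkbiz, and only for Rel do the groups not overlap.

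Rel rose in the cocktail hemisphere of all 6 mice. It encodes c-Rel, a transactivating subunit best known from lymphocytes, and lies on chromosome 11 from 23741729 to 23770970. Its FPKM was 1.55 at the lowest, 2.28 at the median and 2.74 at the highest in control libraries, and 2.94, 3.09 and 3.61 in cocktail libraries. Every cocktail value was thus above every control value, which held for 0.914% of all loci in either direction. The log2 fold change of Rel was 0.36 (standard error 0.075, adjusted p = 0.035 from limma), with within-mouse differences from 0.079 in mouse 5 to 0.63 in mouse 1. These values of Rel rest on 67 to 164 reads in each library, the fewest of the 10 genes. Exact two-sided permutation of the signs of the 6 differences gave p = 0.03125, the smallest that 6 pairs allow. Any gene that moves the same way in all 6 mice gets this value, so it adds nothing to that count, here or for Nfkbiz and Nfkbie below. In mouse 1 the median difference of all loci was itself 0.096, against -0.048 to 0.024 in the other mice. The call of Rel depended on single mice: the adjusted p from limma was 0.022 without mouse 5, but between 0.083 and 0.16 when any other mouse was left out (0.084 without mouse 1), with log2 fold changes between 0.31 and 0.42. The adjusted p of Rel was 0.067 in the fit that left the mouse out of the model and 0.13 with no filter on low values.

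Nfkbiz rose in all 6 mice as well, by 0.39 on the log2 scale (standard error 0.082, adjusted p = 0.04 from limma). This gene on chromosome 16 (55811377 to 55838641) encodes IκBζ, an atypical nuclear member of the IκB family that is itself inducible and helps to switch on a set of secondary response genes. Its FPKM was 5.40, 8.58 and 10.5 (lowest, median, highest) in control and 9.34, 11.3 and 12.5 in cocktail libraries, so the groups overlapped. The rise of Nfkbiz was largest in mouse 1 (0.69) and mouse 4 (0.67) and close to 0 in mouse 6 (0.019), and the sign-flip permutation test gave p = 0.03125. Its adjusted p from limma was 0.011 without mouse 6 and between 0.077 and 0.17 without any other mouse (0.088 without mouse 1). It was 0.37 in the fit that left the mouse out of the model, 0.16 with no filter on low values and 0.063 with voom, a fit of the recovered reads.

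Nfkbie was higher in all 6 mice but was not called. It encodes IκBε, another cytoplasmic inhibitor (chromosome 17, 45555700 to 45563168). Its FPKM was 2.50, 3.50 and 3.92 in control and 3.54, 3.77 and 5.00 in cocktail libraries (lowest, median, highest). Its log2 fold change was 0.24 with a 95% interval of 0.092 to 0.38 and an adjusted p of 0.16 from limma, and the sign-flip permutation test, which does not adjust for the number of genes, gave p = 0.03125. Nfkb1, which encodes the precursor of a DNA-binding subunit without a transactivation domain (chromosome 3, 135584655 to 135691547), was higher in 5 of 6 mice, from 5.75 ± 0.542 to 6.50 ± 0.604 FPKM (SD, n = 6). The log2 fold change of Nfkb1 was 0.15 (95% interval 0.023 to 0.28, adjusted p = 0.47 from limma), and mouse 6 was the exception at -0.07.

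The other subunits were not called, and their groups overlapped. Rela had 17.3 ± 2.22 FPKM in the cocktail (SD, n = 6) and a log2 fold change of 0.058 with a 95% interval from -0.06 to 0.18. Nfkb2, whose product belongs to the noncanonical pathway together with that of Relb (chromosome 19, 46304737 to 46312090), had 4.16 ± 0.449 FPKM in the cocktail and a log2 fold change of 0.026 (-0.13 to 0.18). Relb itself (chromosome 7, 19606222 to 19629438) had 5.27 ± 0.697 FPKM in control and 4.85 ± 0.486 FPKM in cocktail slices, with a log2 fold change of -0.097 (-0.24 to 0.043). The adjusted p from limma was 0.88 for Rela, 0.97 for Nfkb2 and 0.78 for Relb. Exons of Nfkb2 share 299 bases with those of Psd and 531 bases with those of a noncoding RNA on the opposite strand in GENCODE M21. The methods describe the reads as strand specific but do not say whether the FPKM estimate used the strand, so reads of such partners could not be separated with certainty.

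The classical feedback inhibitors Nfkbia and Tnfaip3 were not called in either direction. Nfkbia had 23.5, 30.2 and 35.6 FPKM in control and 24.4, 24.9 and 32.3 FPKM in cocktail libraries (lowest, median, highest), and it was lower in 5 of 6 mice. The log2 fold change of Nfkbia was -0.16 with a 95% interval from -0.32 to -0.012, an unadjusted p of 0.036 and an adjusted p of 0.54 from limma, so it was not called. Tnfaip3 encodes A20, an enzyme that edits ubiquitin chains and shuts off signalling upstream of IKK, and lies on chromosome 10 from 19000910 to 19015410. It had 4.28, 6.15 and 7.35 FPKM in control and 4.54, 5.05 and 7.75 FPKM in cocktail libraries, with a log2 fold change of -0.14 (-0.33 to 0.061, adjusted p = 0.78 from limma), and it was lower in 3 of 6 mice. Nfkbib was lower in 5 of 6 mice, from 11.5 ± 0.669 to 10.5 ± 0.83 FPKM (SD, n = 6), and its log2 fold change of -0.11 (-0.23 to 0.011) was not called either (adjusted p = 0.68 from limma). Exons of Nfkbib share 42 bases with Sirt2 and 314 with Ccer2 on the opposite strand.

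**Figure D2:**
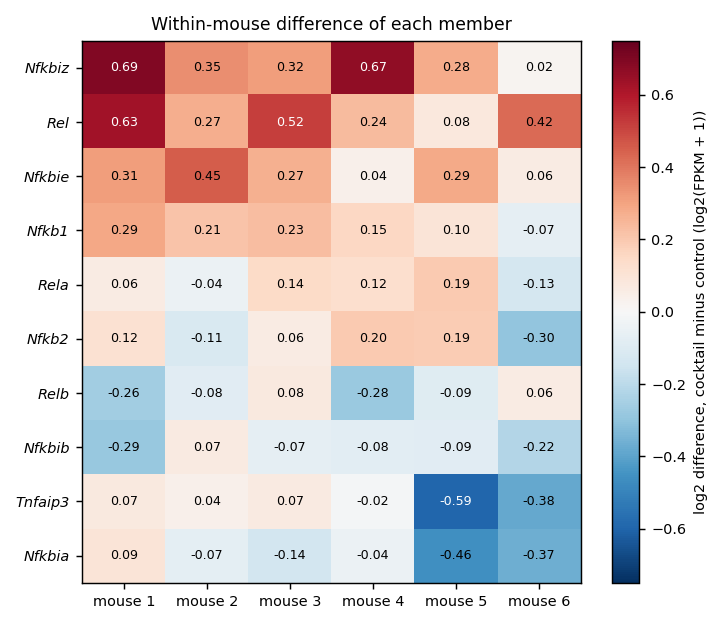
Difference in log2(FPKM + 1) between the cocktail and the control hemisphere of each mouse (columns) for each of the 10 genes (rows, ordered by log2 fold change); red is higher and blue lower in the cocktail. Rel, Nfkbiz and Nfkbie are positive in all 6 mice, and the lowest values are those of Tnfaip3 and Nfkbia in mice 5 and 6.

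The lowest within-mouse differences of Nfkbia and of Tnfaip3 were in the same mice. In mouse 5 the within-mouse difference was -0.46 for Nfkbia and -0.59 for Tnfaip3, and in mouse 6 it was -0.37 and -0.38. In the other 4 mice it lay between -0.14 and 0.095 for Nfkbia and between -0.016 and 0.071 for Tnfaip3. A high control value lowers such a difference as a low cocktail value does. Mice 5 and 6 had 34.3 and 32.1 FPKM of Nfkbia in control and 24.7 in both cocktail hemispheres. For Tnfaip3 they had 7.35 and 7.23 FPKM in control and 4.54 and 5.31 in the cocktail. Mouse 3 was also high in control (35.6 and 7.34 FPKM) but stayed high in the cocktail (32.3 and 7.75 FPKM). Without mouse 5 the log2 fold change was -0.10 for Nfkbia and -0.044 for Tnfaip3, and without mouse 6 that of Tnfaip3 was -0.086. Of the 10 genes, 8 were higher in the cocktail in mouse 1 and in mouse 3, 6 in mice 2, 4 and 5, and 4 in mouse 6.

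Direct comparisons were made for 4 pairs of the 10 genes. The difference between the within-mouse log2 differences of a pair was tested by exact two-sided permutation of signs, with Benjamini-Hochberg adjustment over the 4 pairs. None of the 4 differences passed 0.05. The change of Rel exceeded that of Rela by 0.30 on average (-0.12 to 0.57 over mice, 5 of 6 positive, adjusted p = 0.25, permutation test). Per library, Rel amounted to between 8.23% and 16.6% of the FPKM of Rela in control and to between 14.9% and 24.2% of it in cocktail slices, so these ranges overlapped. Nfkb1 exceeded Nfkb2 by 0.13 (-0.093 to 0.33, 4 of 6 positive, adjusted p = 0.25, permutation test). The mean difference between Nfkbia and Nfkbib was -0.052 (-0.37 to 0.38) and that between Nfkbia and Tnfaip3 was -0.028 (-0.21 to 0.13), both with an adjusted p of 0.625 in the permutation test.

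Levels also differed between mice within the control group. Nfkbia had 32.1 to 35.6 FPKM in the control hemispheres of mice 3, 5 and 6, against 23.5 to 28.2 in mice 1, 2 and 4. Tnfaip3 divided the same mice, with 7.23 to 7.35 FPKM against 4.28 to 5.07, and Nfkbiz did so too, with 9.70 to 10.5 against 5.40 to 7.46. Nfkbie divided them by a narrow margin, with 3.56 to 3.92 against 2.50 to 3.43. Relb divided them the other way, with 4.56 to 4.93 in mice 3, 5 and 6 against 5.13 to 6.53, and the rest of the 10 genes did not divide them. The cytokine gene Tnf, a classical target and activator of the pathway, had 15.7 to 17.1 FPKM in mice 3, 5 and 6 and 3.37 to 7.57 FPKM in the other 3 control hemispheres. Of the genes named below, Ccl4, Ptgs2, Nfkbid and Il6 were also higher in the control hemispheres of mice 3, 5 and 6, while Bcl3 and Gadd45b were lower. Cxcl10 did not divide the mice. The values of Nfkbia, Tnfaip3, Nfkbiz and Tnf thus divided the mice 3 against 3, so no correlation was computed. This pattern was noticed only in the values themselves. How many of all loci divide the mice in this way was not counted, so it cannot be called particular to these genes. The recovered reads of the control libraries were 15627274, 14221252 and 10601067 in mice 3, 5 and 6 and 19768881, 16350615 and 13933211 in mice 1, 2 and 4. The part of depth or of summed FPKM in the pattern was not tested. Among the cocktail hemispheres, that of mouse 3 had 32.3 FPKM of Nfkbia and 7.75 FPKM of Tnfaip3 against at most 26.8 and 5.31 in the other mice. Nfkbiz did not set mouse 3 apart there, with 9.34 FPKM in mouse 1 and between 9.78 (mouse 2) and 12.5 (mouse 3) in the other cocktail hemispheres, including 12.2 in mouse 4.

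**Figure D3:**
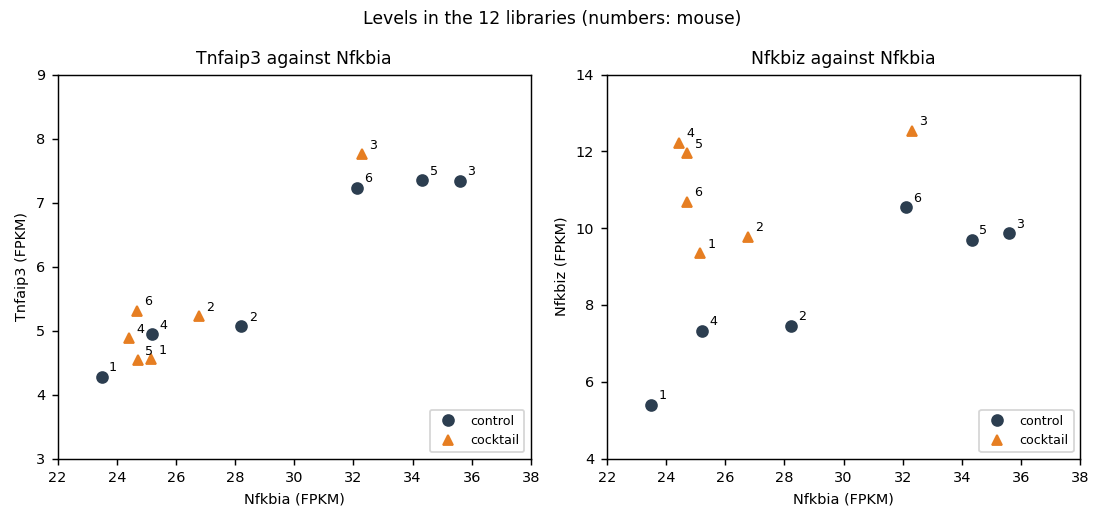
FPKM of Tnfaip3 (left) and Nfkbiz (right) against that of Nfkbia in the 12 libraries, with circles for control and triangles for cocktail hemispheres and the mouse number beside each point; axes do not start at 0. Control hemispheres of mice 3, 5 and 6 lie above those of mice 1, 2 and 4 on all 3 genes, and of the cocktail hemispheres only that of mouse 3 lies above 30 FPKM of Nfkbia.

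The genes whose 6 within-mouse differences lay nearest to those of Nfkbia, outside the 10 genes, were Spp1, Ahnak, BC068281, Plau and 9930104L06Rik. Their root mean square distance over the 6 mice was between 0.078 for Spp1 and 0.1 for 9930104L06Rik on the log2 scale. Their log2 fold changes lay between -0.20 and -0.14, and none of these 5 was called (adjusted p from limma of at least 0.46).

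Elsewhere in the pathway, no tested gene of the IKK, upstream and brake lists was called. Of all loci tested 1.50% were called, so 0 calls in lists this short do not set them apart from all loci. Of the genes of the IKK complex, which phosphorylates IκB proteins, and its relatives, 4 of 5 passed the filter (Chuk, Ikbkb, Ikbkg and Tbk1). Of these, 0 were called, and their median log2 fold change was 0.019, against 0.0076 over all loci. Among 20 adaptors and kinases upstream of IKK, such as the Traf proteins, 18 were tested and 0 were called, with log2 fold changes between -0.12 and 0.22. A list of 12 other brakes of the pathway, such as the deubiquitinase Cyld, had 9 tested genes, 0 called and a range of -0.089 to 0.10.

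Bcl3, an atypical IκB protein that acts in the nucleus with subunits lacking a transactivation domain, was called lower. It was lower in the cocktail in all 6 mice, with 1.81, 2.10 and 2.37 FPKM in control and 1.24, 1.29 and 1.84 FPKM in cocktail libraries (lowest, median, highest). The log2 fold change of Bcl3 was -0.35 (standard error 0.071, adjusted p = 0.034 from limma). Only 25 to 68 reads per library lie behind it, its exons share 161 bases with an antisense gene, and the adjusted p was between 0.04 (without mouse 3) and 0.14 (without mouse 4) when a mouse was left out. Its call was also lost without the block (0.061), with no filter on low values (0.093) and with voom on the recovered reads (0.19). Nfkbid, the remaining nuclear IκB gene, was higher in all 6 mice but was not called, with a log2 fold change of 0.26 (95% interval 0.10 to 0.41, adjusted p = 0.16 from limma).

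**Figure D4:**
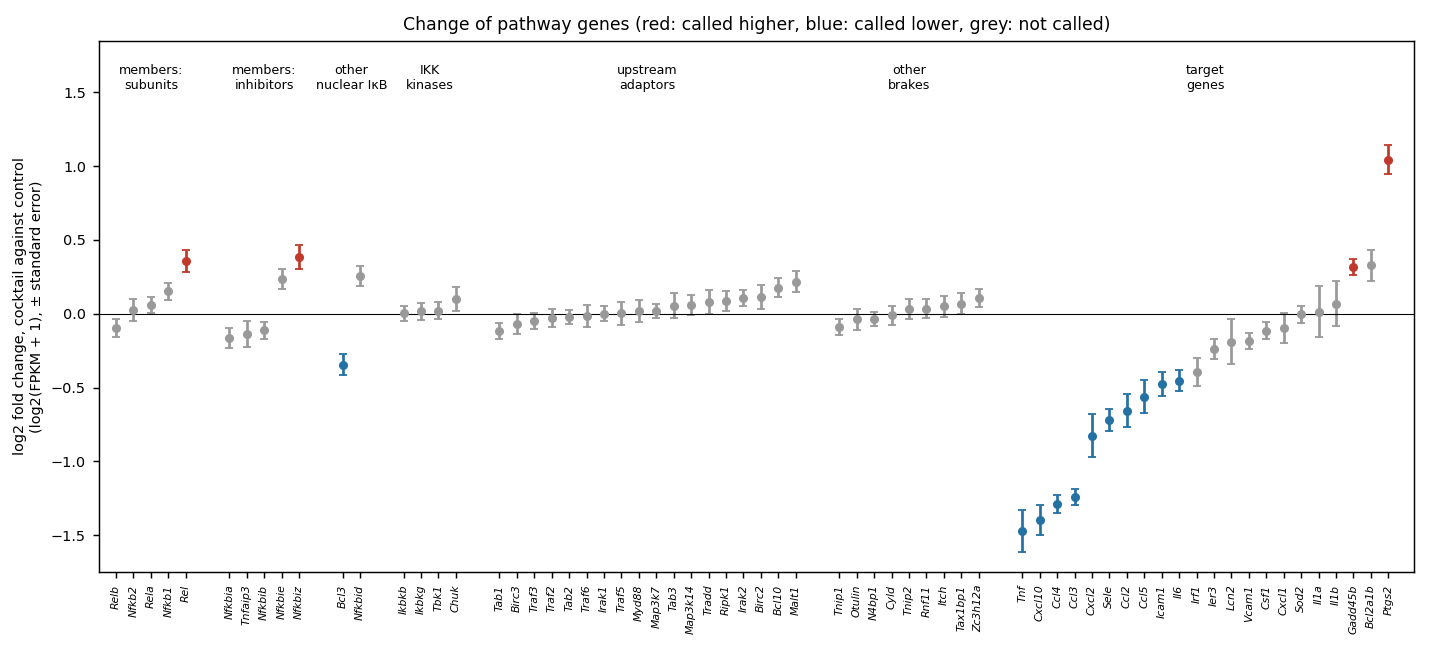
Log2 fold change, cocktail against control, on the log2(FPKM + 1) scale with its standard error, for the 10 genes and for every tested gene of the pathway lists; red genes were called higher, blue lower and grey were not called. Called genes are Rel and Nfkbiz among the 10 genes, Bcl3 among the other nuclear IκB genes, and 10 lower and 2 higher among the target genes. None was called among the IKK complex and its relatives (labelled IKK kinases), upstream adaptors and other brakes.

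Among textbook target genes of NF-κB, more were called lower than higher. Of 26 such genes, 22 were tested, of which 10 were called lower and 2 higher, with 10 not called, and their median log2 fold change was -0.32. Among all loci tested, 0.274% were called lower and 1.22% higher, and the median was 0.0076. Most of the lowered genes encode cytokines and chemokines that earlier results of these libraries had already shown, so the list is not independent evidence. The 3 lowest log2 fold changes were those of Tnf (-1.47), Cxcl10 (-1.40) and Ccl4 (-1.29), with adjusted p-values from limma of 0.000136, 1.75e-05 and 6.58e-07. Il6, the gene of interleukin 6, fell by 0.45 (adjusted p = 0.0075 from limma) with 17 to 59 reads per library. On the log2(FPKM + 1) scale this was the smallest fall of the 10 lowered targets. That rank depends on the added 1, since Il6 went from 2.37 to 1.48 FPKM and Icam1, the next smallest, from 11.2 to 7.93 FPKM. The 2 targets called higher were Ptgs2, the gene of cyclooxygenase 2, at 1.04 and Gadd45b, a stress-inducible regulator of MAP kinase signalling, at 0.32 (adjusted p = 0.000119 and 0.00997 from limma). Exons of Cxcl10 share 133 bases with Art3 on the opposite strand. Summed FPKM of the microglia markers, cells known for such cytokines, overlapped between the groups as given above, and their highest and lowest log2 fold changes were 0.18 (Trem2) and -0.20 (Cx3cr1), neither called, and the part of cell numbers in these falls was not tested. The number of targets called lower was 5 in the fit that left the mouse out and 6 with voom.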

How the data were processed

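The 12 libraries were made from poly-A RNA and sequenced with single reads of 50 bp. Per the labels, the authors used BWA 0.6.1, TopHat 1.4.1 and Cufflinks 1.3.0 with mm10. They removed ribosomal RNA reads, kept reads with 1 placement, corrected for bias and deposited FPKM with a confidence interval for each gene locus. A table of the authors' own comparison by DESeq2 (mean counts, fold changes, p-values and group means of FPKM) was not used.

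Reads were recovered from the intervals, taken as 2 Poisson standard deviations: 83.4% of 36048 values under 20 reads were whole to within 0.05, and they cover counting error only. File starts count from 0, so 1 was added (10759 of 19680 loci then matched a RefSeq start, 701 without). The fit used limma 3.58.1 in R 4.3.3 on log2(FPKM + 1) with a variance trend, and was tested on simulated data. Permutation tests used Python 3.11.15 with numpy 2.4.6, and figures matplotlib 3.10.9. The mouse numbers in the labels pair the hemispheres. Deviations from the group mean correlated by 0.216 to 0.406 within mice (median 0.337) and by -0.42 to 0.445 between mice (median -0.0714). Subtracting the group mean itself draws the values between mice below 0, so their negative median is no evidence for the pairing.

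All 10 genes, the called genes of the pathway lists (where a list had more, the 3 highest and the 3 lowest log2 fold changes among them, which for the targets takes in Ptgs2, Gadd45b and Il6 at the upper end) and the 5 genes most like Nfkbia were named by rule. The genes and lists were chosen with earlier results of these data known. The alternatives were another pseudocount, other filters, no block, another scaling, no variance trend, voom, and each mouse left out.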

Additional observations from a re-analysis of the deposited data

Results flagged for a closer look

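In 2 of 30 groups of 6 values (10 genes in control, in cocktail and as within-mouse differences), a single library stood apart from the rest of its group. About 1.5 of 30 groups would do so by chance. Both were cocktail hemispheres of mouse 3. Nfkbia had 32.3 FPKM there against 24.4 to 26.8 in the other mice, so that the gap took up 0.703 of the range, and Tnfaip3 had 7.75 FPKM against 4.54 to 5.31, a gap of 0.759 of the range. The control hemisphere of mouse 3 was also the highest of its group for Nfkbia (35.6 FPKM), so the within-mouse difference of Nfkbia in mouse 3 (-0.14) was not set apart. The cause was not tested.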

How the results depend on the processing

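The number of loci called was 180. It was 88 with no replicate block (77 higher, 11 lower), 118 with voom on the recovered reads, and 104 (without mouse 4) to 181 (without mouse 6) when a mouse was left out. Of the 10 genes, 2 were called. The number was 0 with no filter and with no replicate block, 1 with voom (Rel) and 1 at a mean FPKM of at least 5 (Nfkbiz, with Rel not tested), and 0 to 1 when a mouse was left out. It stayed at 2 with a pseudocount of 0.1, median-of-ratios scaling and no variance trend. The log2 fold change of Rel was 0.36 with no filter (adjusted p = 0.13 from limma) and with no replicate block, and 0.31 to 0.42 without a mouse. It was larger with a pseudocount of 0.1 (0.48, adjusted p = 0.042 from limma) and with voom (0.53, adjusted p = 0.027 from limma). The log2 fold change of Nfkbiz was 0.39 with no filter (adjusted p = 0.16 from limma) and with no replicate block. It was 0.43 with a pseudocount of 0.1, 0.41 with voom (adjusted p = 0.063 from limma) and 0.33 to 0.46 without a mouse. Nfkb2 turned to -0.025 with voom and spanned -0.0089 to 0.090 without a mouse, and Rela turned to -0.0095 with voom, all not called. The other 6 genes kept their direction and were not called in any fit. With no filter more loci were tested, and without a mouse fewer libraries. The cause of the other changes was not tested. The targets called lower numbered 10, with 6 under no filter, a mean FPKM of at least 5 and voom, 5 with no replicate block, and 8 to 10 without a mouse; their count beyond the pseudocount and the block was chosen after seeing the data. The paired tests of 4 gene pairs kept their results with a pseudocount of 0.1. Reads per library were as few as 67 for Rel among the 10 genes and 4 for Ccl5 among the targets called lower, which limits the precision of these values.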

Other observations

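Among the target genes called lower, 6 lie outside the rule for named genes and were chosen after their values were seen. Icam1 and Sele, which encode adhesion molecules that endothelial cells use to capture leukocytes, were lower in all 6 mice. Icam1 went from 11.2 ± 1.96 to 7.93 ± 2.51 FPKM (SD, n = 6), a log2 fold change of -0.48 (adjusted p = 0.0097 from limma), and its exons share 511 bases with an antisense gene. Sele went from 1.89 ± 0.653 to 0.739 ± 0.272 FPKM (SD, n = 6), with no overlap between the groups. Its log2 fold change was -0.72 (adjusted p = 0.00019 from limma), a value that the added 1 draws towards 0 at such low levels. None of the 5 endothelial markers was called, and their log2 fold changes lay between -0.053 and 0.18. The other 4 were chemokine genes, Ccl2, Ccl3, Ccl5 and Cxcl2, with log2 fold changes of -0.66, -1.24, -0.56 and -0.83. Ccl5 rests on 4 to 52 reads per library and was lower in 5 of 6 mice. By contrast, Il1a and Il1b, which encode interleukin 1, had log2 fold changes of 0.015 and 0.069 and were not called, and whether they differ from the lowered genes was not tested.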
